A study of Arabidopsis thaliana with 4 samples.

Results

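Starch is made in the chloroplast by day and broken down at night, and the transcripts described here are those of its enzymes, of the carriers that bring glucose 6-phosphate into plastids, and of QQS (Qua-Quine Starch), a small protein whose reduction is known to raise leaf starch. The set was chosen by locus and held 44 genes: 17 for synthesis, 24 for breakdown, the 2 glucose 6-phosphate/phosphate translocators GPT1 and GPT2, and QQS. All 44 had a probe set among the 27826 measured on the arrays. Whole Arabidopsis thaliana rosettes of accession Columbia-0 (Col-0) were profiled at 4 weeks. One group of 2 arrays was labelled 35S:∆13RAP2.12, in the Col-0 background, and the other group of 2 arrays was wild-type Col-0. The transgene's name stands for a RAP2.12 shortened at its amino terminus and driven by 35S, a viral promoter active in most plant cells. RAP2.12 is an ethylene response factor that activates genes of low-oxygen metabolism, and the intact protein is degraded in the presence of oxygen. All samples had 2 days of cold stratification at 4 °C. Plants had 12 h of light and 12 h of darkness, with 22 °C by day and 18 °C by night. Rosettes were harvested 10 h into the light, so they were sampled late in the phase of starch deposition. The labels give no number of transgenic lines or of plants per array, so errors below measure the spread between these arrays, which may be technical.

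Levels are RMA values on the log2 scale, where a difference of 1 is a 2-fold change, and a level cannot be set against that of another gene. The RAP2.12 probe set was not higher where the label would place the transgene. It read 11.28 and 11.06 on the 35S:∆13RAP2.12-labelled arrays, against 11.07 and 11.16 in Col-0 (log2 difference 0.06, 95% interval -0.30 to 0.41, limma adjusted p = 0.879). This reading does not bear out the label, so the group is named by its label throughout; the labels do not say where in the transcript the probes lie. Median levels of the arrays lay between 7.88 and 7.91. Of 6 leaf markers, 4 lay above the array-wide upper quartile, while LHCA1 and CAB2 lay below the median. Of 15 markers of root hairs, flowers and seeds, 12 lay below the lower quartile. The summed flower markers were at 6.95 to 7.07 on the 35S:∆13RAP2.12-labelled arrays and 7.40 to 7.61 in Col-0 (log2 of the sum). AGAMOUS differed by -1.10 (limma adjusted p = 0.0690) and alone of the flower markers had a Col-0 mean above the lower quartile. The other flower markers differed by 0.14 for AP1, 0.09 for SEP1, -0.23 for SEP3, -0.43 for PI and -0.26 for AP3. The part of the flower markers in the results below was not tested. The summed leaf markers were at 14.43 in the 35S:∆13RAP2.12-labelled arrays and 14.48 to 14.52 in Col-0, and the groups overlapped in the sums of root hair markers and of seed markers.

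Sucrose and starch share the day's fixed carbon. For starch, plastidial phosphoglucose isomerase and phosphoglucomutase turn fructose 6-phosphate into glucose 1-phosphate, ADP-glucose pyrophosphorylase activates it, and starch synthases, branching enzymes and isoamylase build the granule. At night, glucan dikinases phosphorylate the granule surface, phosphatases remove the phosphate, and β-amylases and debranching enzymes release maltose and short glucans, which leave the plastid. QQS is an orphan gene, without recognised relatives in other plants, and it is known for expression that varies between Arabidopsis strains and stocks along with the DNA methylation of its locus. Its protein binds NF-YC4, a subunit of the nuclear factor Y transcription factor.

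Of the 44 genes, 2 were higher on the 35S:∆13RAP2.12-labelled arrays and 0 were lower at a limma adjusted p below 0.05. These were QQS and GPT2. Of all probe sets, 2.17% passed this threshold, 1.74% as higher and 0.424% as lower. None of the 41 genes of starch synthesis and breakdown passed, and the smallest adjusted p among them was 0.129. At an adjusted p below 0.10 the count stayed at QQS and GPT2, beside 4.32% of all probe sets (2.98% higher and 1.34% lower). At an unadjusted p below 0.05, limma counted 10 of the 44, of which 8 were starch genes, beside 16.2% of all probe sets. In whole rosettes, a difference in the share of a cell type and a difference in RNA per cell cannot be told apart.

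**Figure D1:**
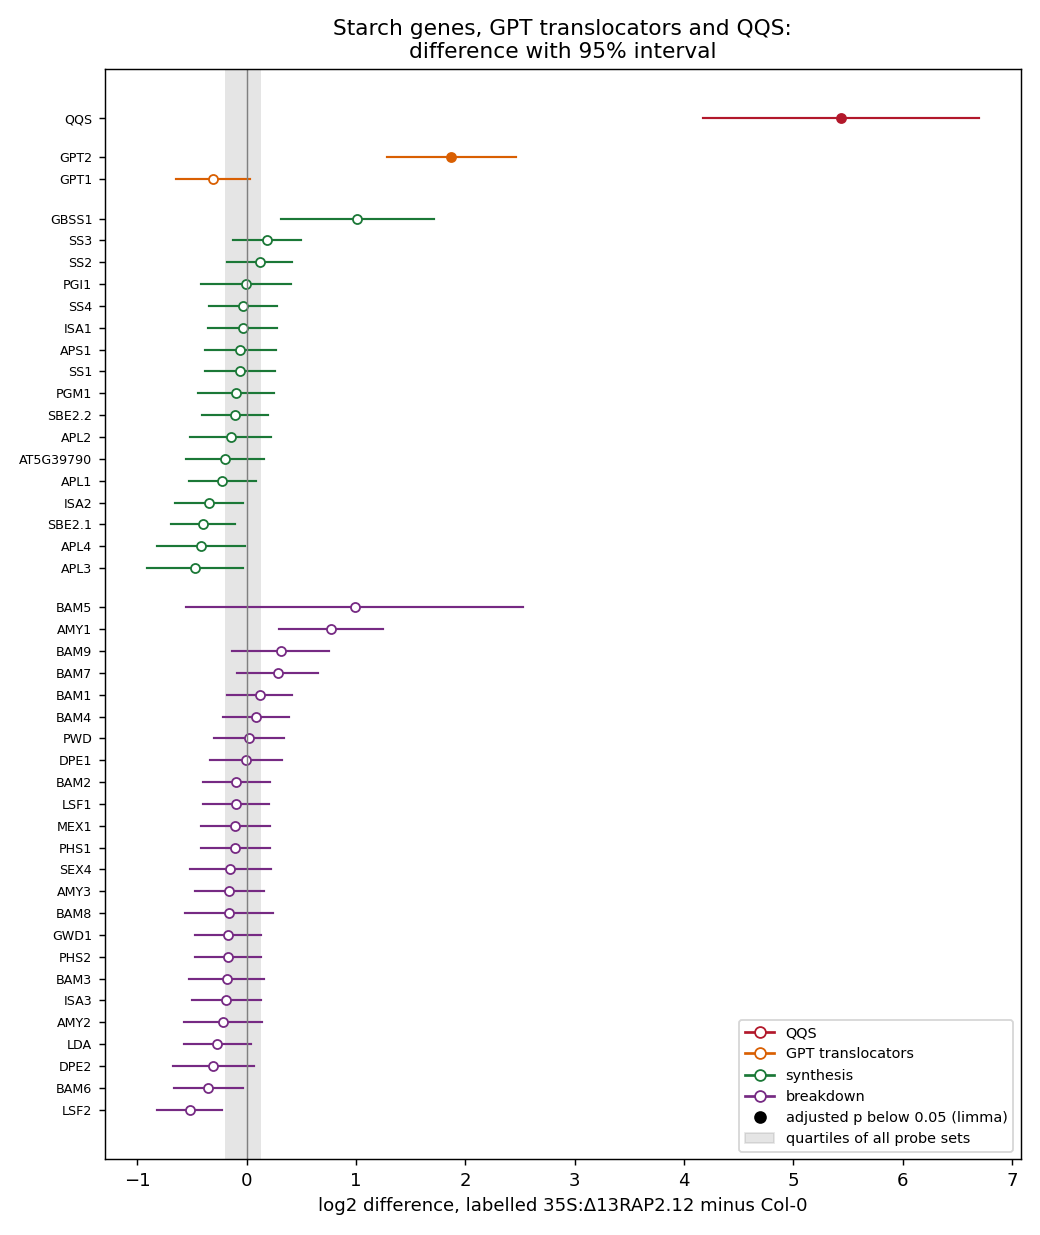
Log2 difference of each of the 44 genes (35S:∆13RAP2.12-labelled arrays minus Col-0; points, with limma's 95% interval as lines), grouped by role; filled points passed an adjusted p of 0.05 and the grey band spans the quartiles of all probe sets, -0.20 to 0.13. QQS at 5.43 and GPT2 at 1.87 are the filled points, and 38 of the 44 lie within 0.5 of 0 (86.4%, against 86.2% of all probe sets).

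QQS (AT3G30720) had the largest difference of the set. It read 10.36 and 9.88 on the 35S:∆13RAP2.12-labelled arrays, against 5.34 and 4.03 on the Col-0 arrays. The groups were far apart, and the wider scatter was in Col-0, where the arrays differed by more than 1 log2 unit. Means were 10.12 ± 0.34 in the 35S:∆13RAP2.12-labelled arrays and 4.69 ± 0.93 in Col-0 (SD, n = 2 each). The groups thus differed by 5.43 on the log2 scale (SE 0.48, 95% interval 4.17 to 6.70, adjusted p = 0.0178 with limma), which is 43.3-fold with an interval of 18.0 to 104. It ranked at 19 among all probe sets ordered from the largest increase. The Col-0 mean was under the array-wide lower quartile of 4.82, and whether that signal exceeded background is unknown, so the exact fold is not determined.

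With an array left out, the lone array of that group is assumed to vary like the other group. Neither a lost nor a kept call in such a fit therefore says much about a single gene. The QQS difference was 6.09 without Col-0 replicate 1 (adjusted p = 0.0674) and 4.78 without Col-0 replicate 2 (adjusted p = 0.0935). It was 5.20 without 35S:∆13RAP2.12-labelled replicate 1 (adjusted p = 0.0508) and 5.67 without 35S:∆13RAP2.12-labelled replicate 2 (adjusted p = 0.0373). NF-YC4, the partner of QQS, differed by 0.06 (95% interval -0.27 to 0.40, limma adjusted p = 0.854), with levels of 8.52 and 8.69 on the 35S:∆13RAP2.12-labelled arrays and 8.50 and 8.58 in Col-0.

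The surroundings of QQS on chromosome 3 are rich in pseudogenes: in the reference gene order of TAIR10.1, 15 of the 20 genes nearest to it, 10 on either side, are pseudogenes and 2 of the 20 had a probe set. Those 2, GDU6 and AT3G30730, lie 2 and 4 genes from QQS. AT3G30730 read 5.49 and 4.64 on the 35S:∆13RAP2.12-labelled arrays, against 3.44 and 3.41 in Col-0, a difference of 1.64 (SE 0.30, limma adjusted p = 0.0938). GDU6, of the GLUTAMINE DUMPER family, read 4.51 and 5.37 on the 35S:∆13RAP2.12-labelled arrays, against 3.57 and 4.25 in Col-0, a difference of 1.03 (SE 0.38, limma adjusted p = 0.300). Neither passed, and the groups did not overlap for either gene, as for 48.6% of all probe sets. AT3G30730 passed when the prior variance of the test followed the level (limma adjusted p = 0.0176), a setting that called 6.32% of all probe sets. Among the other settings that kept all arrays, it did not pass with the replicate number as a block (limma adjusted p = 0.0750) or with quantile normalization again (0.110). Nor did it pass with median centring (0.0905) or with robust eBayes (0.104), and the low-signal filter dropped it. Farther out in the gene order, the differences were 0.07 for AT3G30705, 0.26 for AT3G30580, -0.34 for AT3G30540 and 0.06 for AT3G30770. Adjusted p-values of these 4 lay between 0.470 and 0.948. All 6 neighbours had Col-0 means under that lower quartile, and DNA methylation was not measured on these arrays.

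**Figure D2:**
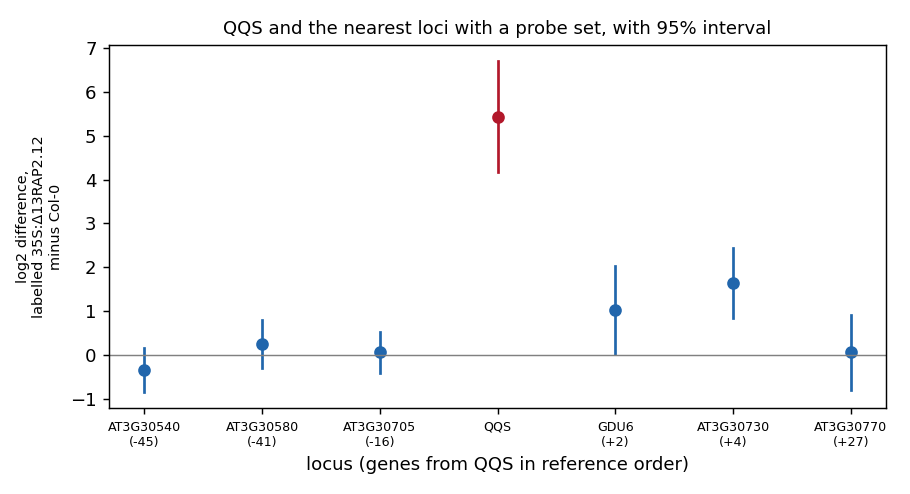
Log2 difference (35S:∆13RAP2.12-labelled arrays minus Col-0) with limma's 95% interval for QQS and the 3 nearest loci on either side that had a probe set, in reference gene order, with the number of genes from QQS in brackets. QQS stands at 5.43; AT3G30730 at 1.64 and GDU6 at 1.03 lie above 0 without passing the threshold with all arrays and a constant prior variance, and the other 4 lie between -0.34 and 0.26.

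GPT2 (AT1G61800) was the other gene that rose. It encodes a glucose 6-phosphate importer of plastids that is known to be induced by sugars and by a shift to high light. It read 8.41 and 7.83 on the 35S:∆13RAP2.12-labelled arrays, against 6.23 and 6.26 in Col-0. The Col-0 arrays nearly coincided, and both other arrays lay well above them. Means were 8.12 ± 0.41 in the 35S:∆13RAP2.12-labelled arrays and 6.24 ± 0.017 in Col-0 (SD, n = 2 each). This made a log2 difference of 1.87 (SE 0.22, 95% interval 1.29 to 2.46, adjusted p = 0.0375 with limma), or 3.66-fold with an interval of 2.44 to 5.50. With an array left out it ranged from 1.58 to 2.16, and its adjusted p was 0.0233 without 35S:∆13RAP2.12-labelled replicate 2. The other adjusted p-values were 0.213 without Col-0 replicate 1, 0.241 without Col-0 replicate 2, and 0.0560 without 35S:∆13RAP2.12-labelled replicate 1.

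GPT1 (AT5G54800), the importer needed for pollen and embryo sac development, did not pass. It read 8.82 and 8.63 on the 35S:∆13RAP2.12-labelled arrays, against 9.06 and 9.00 in Col-0, a difference of -0.31 (SE 0.13, 95% interval -0.64 to 0.03, limma adjusted p = 0.347). Taken within each array, GPT2 minus GPT1 was -0.41 and -0.81 on the 35S:∆13RAP2.12-labelled arrays and -2.83 and -2.75 in Col-0. The groups' mean ratios differed by 2.18 on the log2 scale. An exact two-sided permutation test over the 4 arrays gave p = 0.333, the smallest that this test can give for 2 arrays against 2, so it says nothing more than that the groups did not overlap.

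**Figure D3:**
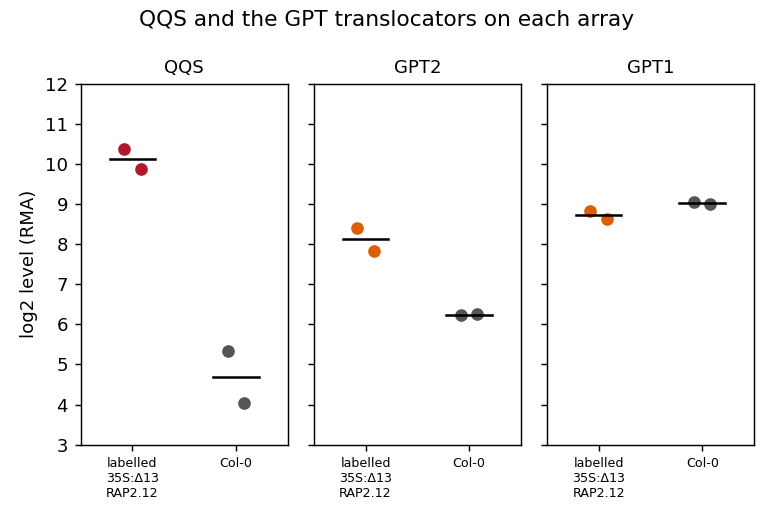
Log2 RMA level of QQS, GPT2 and GPT1 on each array (points; bars are group means, n = 2 arrays each). QQS and GPT2 lie higher on the 35S:∆13RAP2.12-labelled arrays, at means of 10.12 and 8.12 against 4.69 and 6.24 in Col-0, whereas GPT1 differs by -0.31.

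Among the 17 synthesis genes, differences ran from -0.48 to 1.01 with a median of -0.10, beside a median of -0.04 over all probe sets. GBSS1 (AT1G32900), the granule-bound synthase that makes amylose, had the only difference above 0.5. It read 8.06 and 8.26 on the 35S:∆13RAP2.12-labelled arrays, against 7.50 and 6.80 in Col-0, a difference of 1.01 (SE 0.26, 95% interval 0.31 to 1.71, limma adjusted p = 0.181). The groups did not overlap, but the gap between them was smaller than the gap between the Col-0 arrays. The locus AT5G39790, listed with the synthesis genes, differed by -0.20.

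The soluble starch synthases elongate the chains of amylopectin, and their transcripts stayed close to Col-0. Differences were -0.06 for SS1, 0.12 for SS2, 0.19 for SS3 and -0.03 for SS4, which is known for its part in granule initiation. Each of their 95% intervals lay between -0.38 and 0.50. The branching enzyme SBE2.1 (AT2G36390) read 11.00 and 10.96 on the 35S:∆13RAP2.12-labelled arrays, against 11.38 on both Col-0 arrays. That difference of -0.40 (SE 0.11, limma adjusted p = 0.196) was more than the spread between replicates of either group, yet it missed the threshold over all genes. Its partner isoform SBE2.2 differed by -0.11.

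ISA1 and ISA2 form the isoamylase that trims branches while amylopectin is made. ISA2, the non-catalytic subunit, read 9.02 and 8.97 on the 35S:∆13RAP2.12-labelled arrays, against 9.40 and 9.28 in Col-0, a difference of -0.34 (limma adjusted p = 0.272). ISA1, the catalytic subunit, differed by -0.04.

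ADP-glucose pyrophosphorylase, the committed step, joins the small subunit APS1 to a large subunit. All 4 large-subunit genes had negative differences and none passed. APL3 (AT4G39210) read 10.72 and 10.40 on the 35S:∆13RAP2.12-labelled arrays, against 11.13 and 10.93 in Col-0, a difference of -0.48 (SE 0.17, limma adjusted p = 0.277). APL4 (AT2G21590) read 9.49 and 9.61 on the 35S:∆13RAP2.12-labelled arrays, against 10.12 and 9.82 in Col-0, a difference of -0.42 (SE 0.15, limma adjusted p = 0.298). APL3 and APL4 are the large subunits known from sink tissues and sugar feeding. The main leaf large subunit APL1 differed by -0.22, APL2 by -0.15 and the small subunit APS1 by -0.06. Upstream of them, the plastidial phosphoglucomutase PGM1 differed by -0.10 and the phosphoglucose isomerase PGI1 by -0.01.

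**Figure D4:**
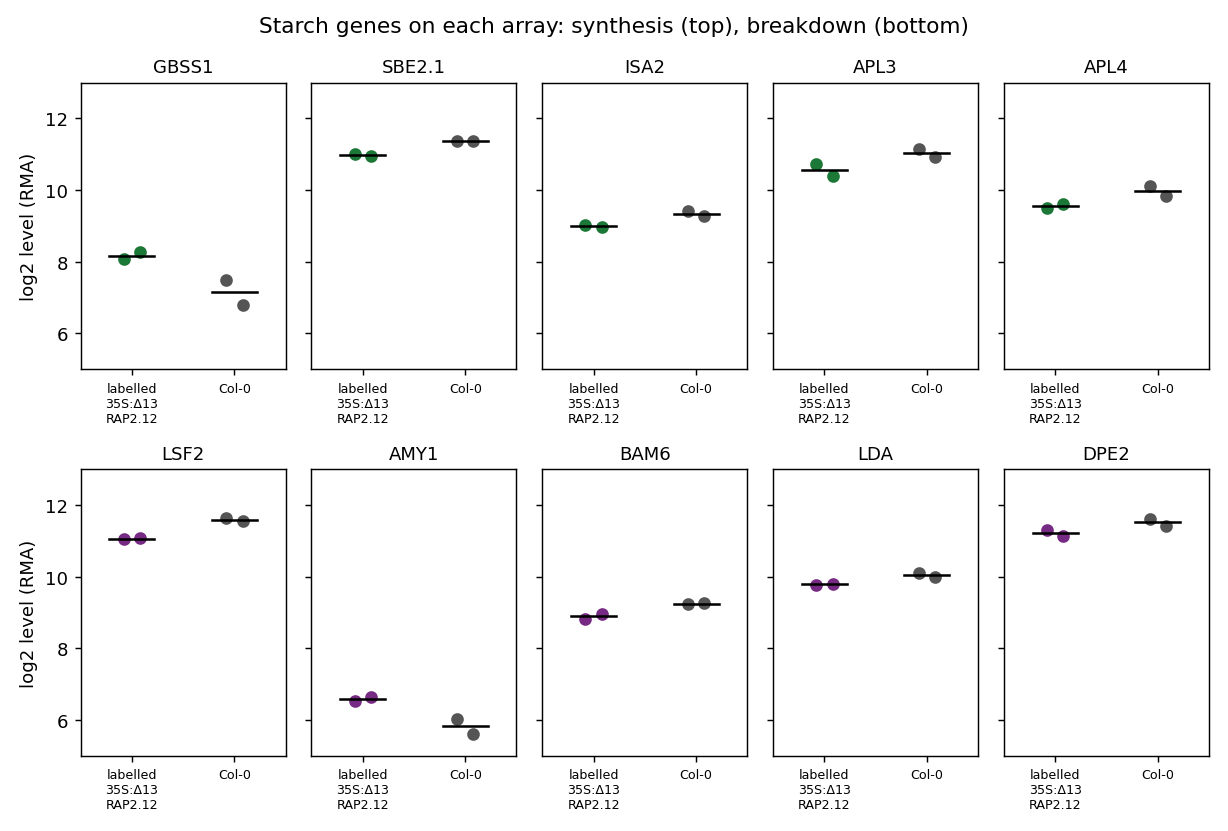
Log2 RMA level on each array (points; bars are group means, n = 2 arrays each) of the 5 synthesis genes and the 5 breakdown genes with the smallest p. GBSS1 and AMY1 lie higher on the 35S:∆13RAP2.12-labelled arrays by 1.01 and 0.77, and the other 8 lie lower by 0.27 to 0.52; none passed the threshold over all probe sets.

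Among the 24 breakdown genes, differences ran from -0.52 to 0.99 with a median of -0.13; 0 passed with limma, and at an unadjusted p below 0.05 the count was 3 (12.5%, against 16.2% of all probe sets). The granule-phosphorylating enzymes came close to Col-0: GWD1 differed by -0.17 and PWD by 0.02. LSF2 (AT3G10940), a phosphatase that removes phosphate from the glucan, had the smallest p of the 41 starch genes. It read 11.05 and 11.09 on the 35S:∆13RAP2.12-labelled arrays, against 11.63 and 11.55 in Col-0. Replicates lay within 0.1 of each other in either group, and the groups differed by -0.52 (SE 0.11, 95% interval -0.82 to -0.22, adjusted p = 0.129 with limma). The phosphatase SEX4 differed by -0.15 and LSF1, a related protein that acts without removing phosphate, by -0.10.

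When the prior variance of the test was allowed to follow the level, LSF2 (adjusted p = 0.00366) and SBE2.1 (adjusted p = 0.0132) passed as lower, and QQS and GPT2 still passed as higher. That setting called 6.32% of all probe sets, 3.74% as higher and 2.58% as lower. These 2 genes were the only starch genes to pass under any alternative tried.

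β-Amylases release maltose from starch, and the 9 family members differed little in most cases. The plastid enzymes BAM1, BAM2 and BAM3, the last being the main enzyme of leaves at night, differed by 0.12, -0.10 and -0.18. BAM6 read 8.83 and 8.96 on the 35S:∆13RAP2.12-labelled arrays, against 9.23 and 9.26 in Col-0, a difference of -0.35 (limma adjusted p = 0.268). BAM4 and BAM9, which lack catalytic activity, differed by 0.09 and 0.31. BAM7 and BAM8, nuclear proteins that act as transcription factors, differed by 0.28 and -0.16. BAM5, an enzyme outside the plastid that is known from phloem and from sugar feeding, was the least reproducible member: it read 10.89 and 9.20 on the 35S:∆13RAP2.12-labelled arrays, against 9.22 and 8.89 in Col-0. Its difference of 0.99 had an interval of -0.55 to 2.53 (limma adjusted p = 0.490), since 1 array alone was high and the other lay within the Col-0 range.

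α-Amylases cut within glucan chains. AMY1 (AT4G25000), which is secreted, read 6.53 and 6.65 on the 35S:∆13RAP2.12-labelled arrays, against 6.03 and 5.61 in Col-0, a difference of 0.77 (SE 0.18, 95% interval 0.29 to 1.25, limma adjusted p = 0.148). AMY2 differed by -0.22 and the plastid enzyme AMY3 by -0.16. The debranching enzymes of breakdown differed by -0.19 for ISA3 and -0.27 for the limit dextrinase LDA, which read 9.77 and 9.80 on the 35S:∆13RAP2.12-labelled arrays and 10.10 and 10.00 in Col-0 (limma adjusted p = 0.360).

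Downstream steps showed no passing difference either. MEX1, the maltose exporter of the plastid envelope, differed by -0.10. DPE2, the cytosolic enzyme that takes up that maltose, read 11.31 and 11.13 on the 35S:∆13RAP2.12-labelled arrays, against 11.62 and 11.43 in Col-0, a difference of -0.30 (limma adjusted p = 0.392). The plastid disproportionating enzyme DPE1 differed by -0.0039 and the glucan phosphorylases PHS1 and PHS2 by -0.10 and -0.17.

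Set side by side, synthesis and breakdown had like medians. Medians of -0.10 over synthesis and -0.13 over breakdown differed by 0.03. A gap, the synthesis median minus the breakdown median, was taken on each array relative to Col-0 means. It was 0.014 and 0.041 on the 35S:∆13RAP2.12-labelled arrays and 0.015 and -0.015 in Col-0. The 2 Col-0 values mirror each other because levels were centred on the Col-0 mean. The groups only just overlapped, at 0.0141 on 35S:∆13RAP2.12-labelled replicate 1 and 0.0147 on Col-0 replicate 1. The SD of this gap between replicate arrays was 0.020, and the gap was -0.024 without Col-0 replicate 2. The size of the differences was that of the whole array: the median absolute difference was 0.17 over the 41 starch genes and 0.17 over all probe sets. For 38 of the 41, the 95% interval lay within a 2-fold change in either direction, and GBSS1, AMY1 and BAM5 were the exceptions. Over all probe sets the count was 22994 of 27826, a smaller share. The median SE of the difference was 0.12 over the 41 genes and 0.15 over all probe sets. At an unadjusted p below 0.05, 4 synthesis genes were lower (23.5%) and 1 higher (5.88%). Among breakdown genes, 2 were lower (8.33%) and 1 higher (4.17%). Of all probe sets, 8.38% were lower and 7.85% higher by that rule. In either direction, the shares were 29.4% of synthesis genes and 12.5% of breakdown genes, beside 16.2% of all probe sets.

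A small downward lean ran through the 41 genes. Of them, 31 had a negative difference (75.6%, against 57.6% of all probe sets), and 22 had groups that did not overlap with the 35S:∆13RAP2.12-labelled arrays lower (53.7%, against 29.1%). Relative to each gene's Col-0 mean, the median synthesis gene stood at -0.13 and -0.07 on the 35S:∆13RAP2.12-labelled arrays and at 0.06 and -0.06 on the Col-0 arrays. The median breakdown gene stood at -0.15 and -0.11 on the 35S:∆13RAP2.12-labelled arrays and at 0.05 and -0.05 on the Col-0 arrays. Within Col-0, replicate 1 exceeded replicate 2 for 33 of the 41 genes (80.5%, against 49.5% of all probe sets), by a median of 0.11, a gap as large between replicates of 1 genotype as the median difference between the groups. Without Col-0 replicate 1, the synthesis median was -0.02 and the breakdown median -0.07, and without Col-0 replicate 2 they were -0.17 and -0.15.

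**Figure D5:**
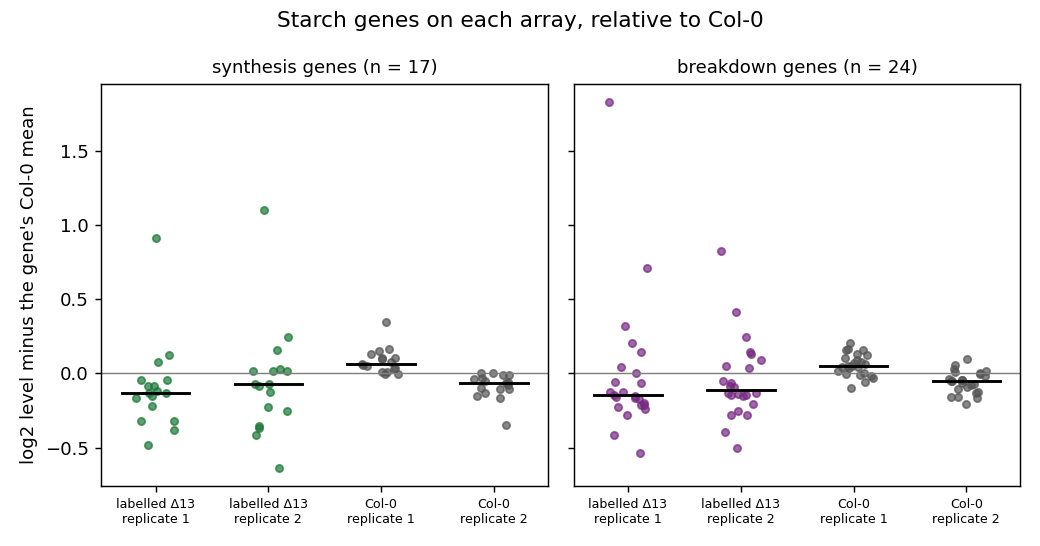
Log2 level of each synthesis gene (n = 17) and breakdown gene (n = 24) minus that gene's Col-0 mean, on each of the 4 arrays (points; bars are medians over the genes). Medians on the 35S:∆13RAP2.12-labelled arrays lie between -0.15 and -0.07, and those of the Col-0 replicates between -0.06 and 0.06, with most genes higher on Col-0 replicate 1.

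Other genes around starch were read from a list of 33 for granule proteins, glucan and hexose use, envelope exchange, sucrose synthesis and NF-YC4. None passed at an adjusted p below 0.05 with limma, while at an unadjusted p below 0.05 the counts were 2 higher and 6 lower (6.06% and 18.2%, against 7.85% and 8.38% of all probe sets). The smallest p belonged to AT2G35840, which read 8.86 and 9.04 on the 35S:∆13RAP2.12-labelled arrays, against 9.48 and 9.66 in Col-0, a difference of -0.62 (SE 0.14, limma adjusted p = 0.137). Next came NTT2, an ATP importer of the plastid envelope, which read 11.08 and 10.94 on the 35S:∆13RAP2.12-labelled arrays, against 10.61 and 10.51 in Col-0, a difference of 0.45 (SE 0.12, limma adjusted p = 0.189). With the prior variance following the level, 2 of the 33 passed as higher and 3 as lower, beside 3.74% and 2.58% of all probe sets.

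Starch genes cycle through the day, so 11 clock genes were read beside them. None passed at a limma adjusted p below 0.05, and 1 of the 11 was past an unadjusted p of 0.05, as were 16.2% of all probe sets. That gene was PRR9, a morning-phased pseudo-response regulator, with 5.86 and 5.74 on the 35S:∆13RAP2.12-labelled arrays, against 4.90 and 4.54 in Col-0, a difference of 1.09 (limma adjusted p = 0.0648); it is named after its values were seen. With dim probe sets filtered out, PRR9 reached a limma adjusted p of 0.0404 and passed. That setting called 4.32% of the probe sets it kept, 3.1% as higher and 1.23% as lower. The Col-0 mean of PRR9, 4.72, was itself under the lower quartile of 4.82. Its level on the 35S:∆13RAP2.12-labelled arrays kept it past the filter, so this pass adds no support. The morning genes CCA1 and LHY differed by 0.47 and -0.39 (limma adjusted p = 0.340 and 0.713). The groups overlapped for LHY. For CCA1 they did not, as for 48.6% of all probe sets, and the Col-0 mean of CCA1 was also under that lower quartile. PRR7, PRR5 and PRR3 differed by -0.18, 0.02 and -0.29. The other 5 clock genes, TOC1, GI, LUX, ELF3 and ELF4, differed by -0.03, 0.07, -0.06, 0.04 and -0.06.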

How the data were processed

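RNA of 4 rosette samples was measured on Affymetrix Arabidopsis arrays, per the labels' protocols. The deposited log2 values had been summarised by RMA, per the submitters' processing notes; the log2 scale was read from the range of the values. The software version, probe set definition and genome build were not given in the sources used here, and no coordinates are printed. The study describes 6 samples, and those beyond these 4 are not analysed here. No detection calls were used, and signal over background is unknown.

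Groups and replicate numbers came from sample titles. No 2 arrays held identical values. Pearson's r over probe sets was 0.993 within each group and 0.978 to 0.980 between groups. The test was limma's moderated one (version 3.58.1 under R 4.3.3, lmFit and eBayes without covariates) on 27826 probe sets, with Benjamini-Hochberg adjustment over all of them. Residual and prior degrees of freedom were 2 and 2.55. No filter, pseudocount or further normalization was applied. Intervals are 95% intervals for single genes. Errors of levels are SDs over 2 arrays. The fit was tried first on simulated data.

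The members, the lists and the alternatives were chosen with earlier results of these data known. Array values were planned for QQS, GPT1, GPT2, each gene that passed, the 5 genes with the smallest p in each of the synthesis and breakdown roles, the neighbours of QQS, and the related genes that passed or else the 2 with the smallest p. Array values of RAP2.12, NF-YC4, BAM5 and PRR9 stand outside this rule, those of the last 2 chosen after they were seen. A locus put on the related list in error was left out, since the reference table gives it another identity. Symbols came from the reference gene table of TAIR10.1, which matched all 44 members. Promoter words were planned and not analysed here. As alternatives, the replicate number entered as a block, arrays were quantile-normalized again or centred on their medians, probe sets with a mean level under the 25th percentile were dropped, eBayes was run robustly or with a trend on intensity, each array was left out, and an adjusted p of 0.10 was read. Matplotlib 3.10.9 (Python 3.11.15) drew the figures.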

Additional observations from a re-analysis of the deposited data

How the results depend on the processing

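Under every alternative run the difference stayed positive for QQS (4.78 to 6.09) and for GPT2 (1.58 to 2.16). QQS had a Col-0 mean of 4.69, under the low-signal filter's cut of 4.816. It was kept there only through its level on the 35S:∆13RAP2.12-labelled arrays, so its call under that filter adds no support. The number of starch genes, translocators and QQS called higher was 2 under each alternative that kept all arrays and ranged from 0 to 2 with an array left out, at 0 without Col-0 replicate 1, without Col-0 replicate 2 and without 35S:∆13RAP2.12-labelled replicate 1. The number called lower was 2 with an intensity trend and 0 under the other alternatives. With quantile normalization again, the median difference was -0.045 over synthesis genes and -0.090 over breakdown genes, beside -0.039 over all probe sets. With median centring, these medians were -0.12, -0.15 and -0.069. With an array left out, the median difference ranged from -0.17 to -0.016 over synthesis genes and from -0.15 to -0.067 over breakdown genes, with -0.067 without Col-0 replicate 1, and their gap ranged from -0.024 to 0.051. RAP2.12 ranged from -0.053 to 0.17 in those fits and was negative without 35S:∆13RAP2.12-labelled replicate 1; the cause was not tested. Over all probe sets 603 passed, 1759 with an intensity trend and 902 with the low-signal filter, against 0 without Col-0 replicate 1, 29 without Col-0 replicate 2, 262 without 35S:∆13RAP2.12-labelled replicate 1 and 315 without 35S:∆13RAP2.12-labelled replicate 2.

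With the replicate number as a block, 2 of the 44 genes were higher and 0 lower, with QQS at an adjusted p of 0.00692 and GPT2 at 0.0395, and 515 of all probe sets passed. Deviations of same-numbered arrays correlated at 0.035 over probe sets, and the labels do not say what a number marks, so the numbers were not taken as pairs. With 2 arrays a group and unknown signal over background, differences smaller than the intervals given could not be resolved, least of all for dim probe sets.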
